A study of Mus musculus with 6 samples.

Results

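The genes described here are 8 epithelial members of the interleukin-1 (IL-1) family: the agonists *Il1a*, *Il1b*, *Il18*, *Il33*, *Il36a* and *Il36g*, and the receptor antagonists *Il1rn* and *Il36rn*. They were taken by name from the 47643 gene IDs counted in mouse salivary gland organoids (mSGOs). The choice was made with earlier results of these data known. The mSGOs were grown in Matrigel from submandibular gland cells of C57BL/6 mice aged 8 to 12 weeks, which were all female according to the methods of the study. They were neither irradiated nor treated. By the sample titles, each of 3 mice gave 1 library of day 5 and 1 of day 7, so the same animals stand behind both days. All libraries shared WRY medium, which holds EGF, FGF2, insulin, N2, dexamethasone (a glucocorticoid), Y27632 and media conditioned with R-spondin1 and Wnt3a. Cultures were started from dissociated salivary spheres of 1 strain and 1 sex, and they model the epithelium apart from the rest of the gland.

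IL-1 family cytokines are alarm signals of barrier epithelia. IL-1α, IL-33 and the IL-36 cytokines are held inside epithelial cells and act on neighbouring cells once released, whereas IL-1β and IL-18 are made as precursors that inflammatory caspases cut. IL-1α and IL-1β bind the chain encoded by *Il1r1*, the IL-36 cytokines that of *Il1rl2*, IL-33 that of *Il1rl1* and IL-18 that of *Il18r1*. All but IL-18 share the accessory chain encoded by *Il1rap*, and the signal runs through MyD88 and IRAK kinases to NF-κB. The IL-1 receptor antagonist (*Il1rn*) and the IL-36 receptor antagonist (*Il36rn*) occupy the receptors without activating them.

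All 8 genes had a count and all 8 passed the filter of at least 1 count in at least 2 libraries. Libraries held 1918198 to 2837397 counts in genes. A count is a read from the 3′ end of a transcript, so levels, given as CPM (counts scaled to library size), were not divided by gene length, and how well each 3′ end was captured is unknown. Day 7 was compared with day 5 by the quasi-likelihood F test of edgeR over 15792 genes. The threshold asked for an adjusted p below 0.05 together with a log2 fold change beyond 0.6 either way. In bulk libraries such as these, a change in the number of cells of a type and a change in RNA per cell cannot be told apart.

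*Il33* and *Il36g* rose past the threshold between day 5 and day 7, each by a little under 4-fold. The other 6 genes were not past it, on counts that were small for all but *Il1rn*. Of the 8 genes, 2 were thus higher and 0 lower, beside 7.22% of all genes tested higher and 4.82% lower (12.0% in either direction). In 3 of the 8 genes (*Il33*, *Il36g* and *Il1rn*) the day 7 libraries all lay above the day 5 libraries and in 0 all below, beside 15.4% and 15.5% of all genes tested. Counted by an unadjusted edgeR p under 0.05, 3 were higher and 0 lower, and by DESeq2 2 and 0. The members' median log2 fold change was 1.39, beside -0.0073 over all genes tested. With genes at 0 on a day set to their bound, these were 0.85 and 0. *Il36rn*, with 1 count on day 5 and 3 on day 7, is 1 of the 2 middle genes in both members' medians. Neither median is therefore firm, and neither stands for a rise of the family.

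**Figure D1:**
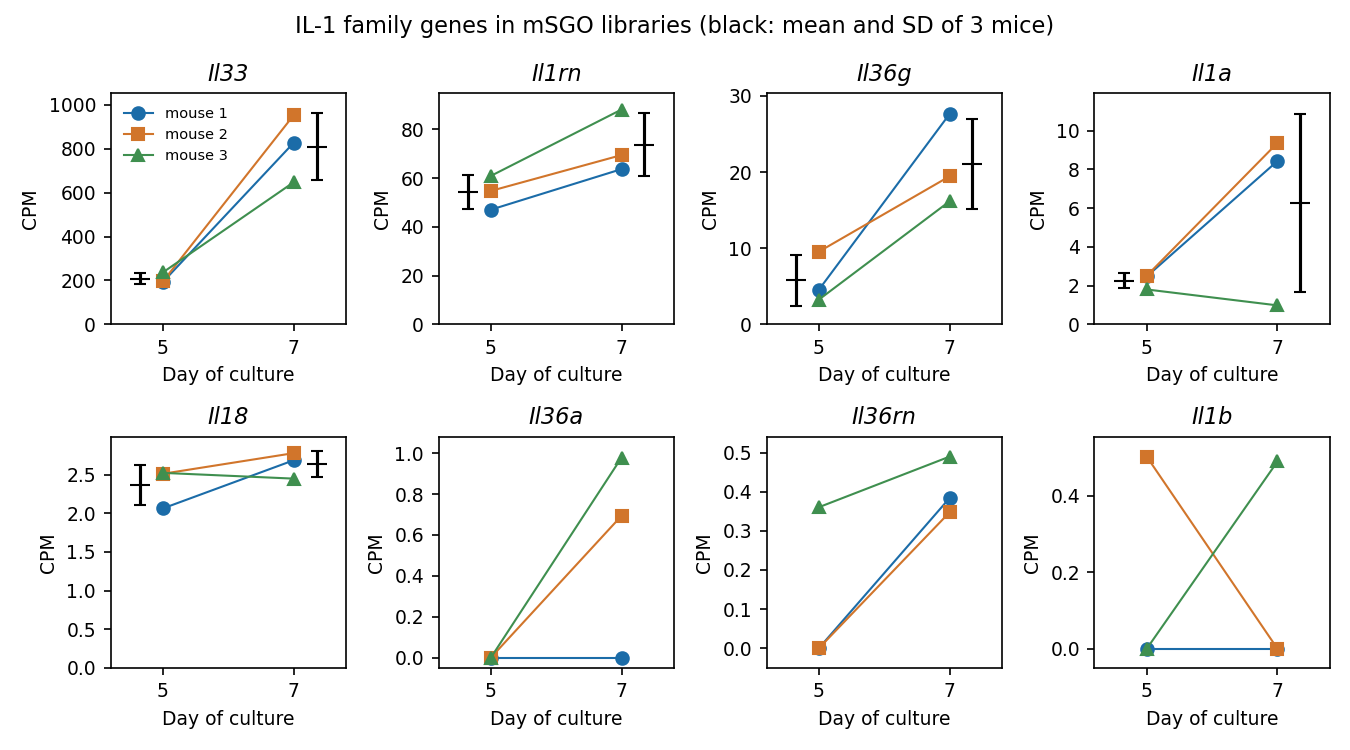
CPM of the 8 IL-1 family genes (y axes, each with its own scale) on day 5 and day 7 of culture (x axes), with a line per mouse and the mean and SD of 3 mice in black for the 5 genes with over 10 counts on each day. The 3 lines of *Il33*, *Il1rn* and *Il36g* all point up, that of mouse 3 points down for *Il1a*, and the last 3 panels rest on 4 counts or fewer per day.

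The promoters of the 3 most abundant genes are shown because they include the pair that rose and the antagonist that did not pass the threshold. Each is the 250 bases before the start of the Ensembl canonical transcript, read from GRCm39 with starts from GENCODE vM39: chr19:29902233-29902482 for *Il33*, chr2:24076238-24076487 for *Il36g* and chr2:24226615-24226864 for *Il1rn*, all on the plus strand and written 5′ to 3′. The *Il36g* window lies inside the annotated span of the gene, since other transcripts start further upstream. Capitals mark matches, on either strand, to the AP-1 motif TGANTCA, the core of the NF-κB motif (GGG and CC with any 5 bases between), or the TATA box TATAAA.
Il33 promoter: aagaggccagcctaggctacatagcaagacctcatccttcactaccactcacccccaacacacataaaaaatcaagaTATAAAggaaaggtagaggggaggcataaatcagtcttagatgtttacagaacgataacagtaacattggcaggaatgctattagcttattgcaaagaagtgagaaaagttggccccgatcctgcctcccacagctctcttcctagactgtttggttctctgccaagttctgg
Il36g promoter: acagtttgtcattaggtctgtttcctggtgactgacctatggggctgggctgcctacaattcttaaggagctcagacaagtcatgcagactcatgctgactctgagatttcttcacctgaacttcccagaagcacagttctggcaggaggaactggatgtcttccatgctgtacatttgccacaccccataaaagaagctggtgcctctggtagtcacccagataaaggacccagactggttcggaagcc
Il1rn promoter: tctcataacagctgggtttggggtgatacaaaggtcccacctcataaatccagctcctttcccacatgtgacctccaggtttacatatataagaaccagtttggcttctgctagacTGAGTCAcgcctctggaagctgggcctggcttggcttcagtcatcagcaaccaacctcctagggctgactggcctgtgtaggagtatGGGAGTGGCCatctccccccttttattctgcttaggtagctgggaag
The *Il33* window held 1 TATAAA, 173 to 168 bases before the start. The *Il36g* window held no match to any of the 3 motifs. The *Il1rn* window held TGAGTCA, 134 to 128 bases before the start, and GGGAGTGGCC, 47 to 38 bases before it, and these do not overlap. Of 21770 promoters of protein-coding genes of the same length, 6.17% held the AP-1 motif, 47.8% the NF-κB core and 11.9% the TATA box. The genes have further annotated starts (9 for *Il33* and 4 for *Il36g* in all), and which of them was used cannot be read from 3′ counts.

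*Il33* encodes IL-33, a nuclear cytokine that is set free from damaged epithelial cells (ENSMUSG00000024810, GRCm39 chromosome 19, 29902483 to 29938933, plus strand). It was at 193, 196 and 237 CPM in mice 1, 2 and 3 on day 5, and at 827, 953 and 647 CPM on day 7. The day 7 values all lay above the day 5 values, and mouse 3 had the highest level on day 5 and the lowest on day 7. The log2 fold change was 1.96 ± 0.20 (SE, n = 3 per day, edgeR adjusted p = 5.74e-06), which is 3.88-fold. Within mice the CPM rose 4.28-fold, 4.86-fold and 2.73-fold. Leaving out any 1 library gave log2 fold changes from 1.82 to 2.09, each past the threshold. *Il33* was also abundant: its mean level was above that of 95.7% of the genes tested on day 5 and 99.3% on day 7. An exon of the predicted gene *Gm41832* overlaps it in antisense. Whether counting used strand is not given in the sources used here, so reads of the pair cannot be told apart. Its last 500 bases also hold stretches of at least 90% identity to transcripts of 1498 other genes, the longest of 71 bases at 90.1%.

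*Il36g* encodes IL-36γ, an agonist made by stratified epithelia (ENSMUSG00000044103, chromosome 2, 24072000 to 24083585, plus strand). Its level was 4.54, 9.54 and 3.24 CPM on day 5 and 27.6, 19.4 and 16.2 CPM on day 7 for mice 1, 2 and 3. The days did not overlap. Mouse 2 was highest on day 5 and mouse 1 on day 7, and mouse 3 was lowest on both days. The log2 fold change was 1.92 ± 0.37 (SE, n = 3 per day, edgeR adjusted p = 0.00214), or 3.78-fold, from 39 counts on day 5 and 161 on day 7. Without 1 library it ranged from 1.61 to 2.44 and stayed past the threshold. The last 500 bases of its transcript match transcripts of 101 other genes, over up to 255 bases at 90.6% identity, and its exons overlap *Gm75365* in antisense, so its counts carry this uncertainty, which those of *Il1rn* do not.

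The other 2 IL-36 agonists were barely detected. *Il36a*, which encodes IL-36α (ENSMUSG00000026984, chromosome 2, 24105430 to 24115714, plus strand), had 0 counts in the day 5 libraries and 0, 2 and 2 on day 7. With 3 counts over a day taken as the limit that a count of 0 allows, its rate was at least 1.27-fold higher on day 7 if the 4 counts of that day are taken as exact. The 95% counting interval of the ratio began at 0.630, and the gene was not called (edgeR adjusted p = 0.228). *Il36b*, which encodes IL-36β and was looked at beside the 8 genes, had 0 counts on day 5 and 5, 4 and 1 on day 7, at least 3.18-fold higher on the same footing, with an interval that began at 2.14. *Il36b* passed the threshold (edgeR adjusted p = 0.0467), but not once mouse entered the fit as a block (edgeR adjusted p = 0.136, where its alternatives gave 0.0217 to 0.136). It also missed the threshold when any day 5 library, day 7 replicate 1 or day 7 replicate 2 was left out, with edgeR adjusted p from 0.0826 to 0.135. DESeq2 gave it no adjusted p, and filterByExpr left it out. *Il1f10*, the remaining gene of the chromosome 2 cluster, had 0 counts in all 6 libraries.

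*Il1rn* encodes the IL-1 receptor antagonist (ENSMUSG00000026981, chromosome 2, 24226865 to 24241506, plus strand) and was the second most abundant of the 8 genes. It was at 47.0, 54.7 and 60.9 CPM on day 5 and at 63.7, 69.4 and 88.1 CPM on day 7 in mice 1, 2 and 3. Mouse 3 was highest and mouse 1 lowest on both days, and the days did not overlap, as in 15.4% of all genes tested for this direction. The log2 fold change of 0.44 ± 0.21 (SE, n = 3 per day) did not pass the threshold (unadjusted p = 0.0513, edgeR adjusted p = 0.196), nor did it in any alternative, where it ranged from 0.29 to 0.53. Its annotated transcripts begin at 5 different starts. Some of them encode a secreted and others an intracellular antagonist, and 3′ counts do not separate these.

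*Il1a* encodes IL-1α, which is active without cleavage (ENSMUSG00000027399, chromosome 2, 129140291 to 129152098, minus strand). It had 6, 5 and 5 counts on day 5, or 2.47, 2.51 and 1.80 CPM, and 22, 27 and 2 counts on day 7, or 8.44, 9.37 and 0.979 CPM. Mice 1 and 2 were higher on day 7 and mouse 3 was lower. The log2 fold change of 1.52 ± 0.59 (SE, n = 3 per day) did not pass (unadjusted p = 0.0182, edgeR adjusted p = 0.101). Without day 7 replicate 3 it was 1.98 and passed (edgeR adjusted p = 0.00284, range over all alternatives 0.00284 to 0.368). The gene also passed when no filter on low counts was used (log2 fold change 1.52, edgeR adjusted p = 0.0210). The call thus turned on 1 library and on the filter. Exons of *Gm14023* overlap it in antisense.

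*Il1b* and *Il36rn* stayed at or under the limit of detection, and *Il18* was low but above it. *Il1b* (ENSMUSG00000027398, chromosome 2, 129206490 to 129213059, minus strand) encodes IL-1β, the form typical of activated myeloid cells, and had 1 count on each day, in mouse 2 on day 5 and in mouse 3 on day 7. Exons of *Il1bos* overlap it in antisense. *Il36rn* (ENSMUSG00000026983, chromosome 2, 24166946 to 24173438, plus strand) had 1 count on day 5 and 3 on day 7. Both lie at or under the 3 counts that a count of 0 allows, so no fold is given. *Il18* (ENSMUSG00000039217, chromosome 9, 50466081 to 50493633, plus strand) encodes IL-18, which epithelia hold as a precursor. It was at 2.06, 2.51 and 2.52 CPM on day 5 and 2.68, 2.78 and 2.45 CPM on day 7, from 17 and 20 counts. The days overlapped, and the log2 fold change was 0.16 ± 0.52 (SE, n = 3 per day, edgeR adjusted p = 0.888).

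**Figure D2:**
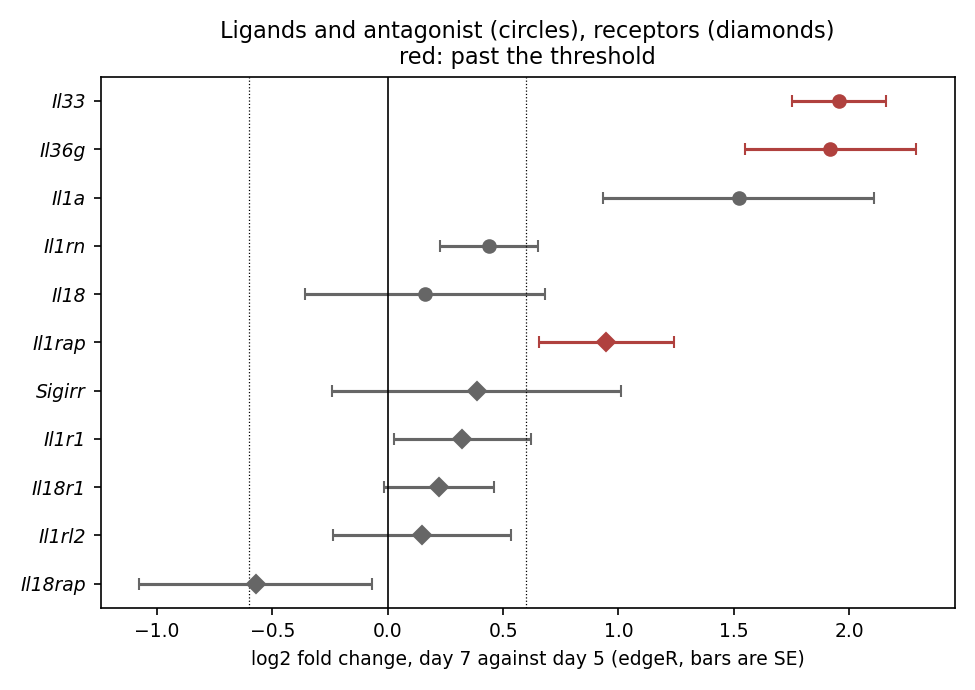
Log2 fold change of day 7 against day 5 (x axis, bars are SE) for the IL-1 family ligands and antagonist (circles) and the receptor genes (diamonds) with at least 20 counts over the 6 libraries, red where past the threshold and with dotted lines at 0.6 either way. *Il33* (1.96) and *Il36g* (1.92) lie furthest to the right, and *Il1rap* (0.95) is the only other red point.

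On day 5 the order by mean level was *Il33* (209 CPM), *Il1rn* (54.2), *Il36g* (5.77), *Il18* (2.36), *Il1a* (2.26), *Il1b* (0.167), *Il36rn* (0.120) and *Il36a* at 0. *Il18* and *Il1a* overlapped in range, as did the last 3. On day 7 the first 3 kept their places at 809, 73.7 and 21.1 CPM with no overlap between neighbours, and *Il1a* (6.26 CPM) and *Il18* (2.64 CPM) overlapped. *Il33* took 73.7% to 77.5% of the counts of the 8 genes on day 5 and 85.5% to 90.3% on day 7. *Il1rn* took 18.9% to 20.6% and then 6.58% to 11.6%. *Il33* counts per *Il1rn* count went from 4.11, 3.58 and 3.89 to 13.0, 13.7 and 7.34 in mice 1, 2 and 3. These ratios are formed within a library and do not depend on scaling.

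**Figure D3:**
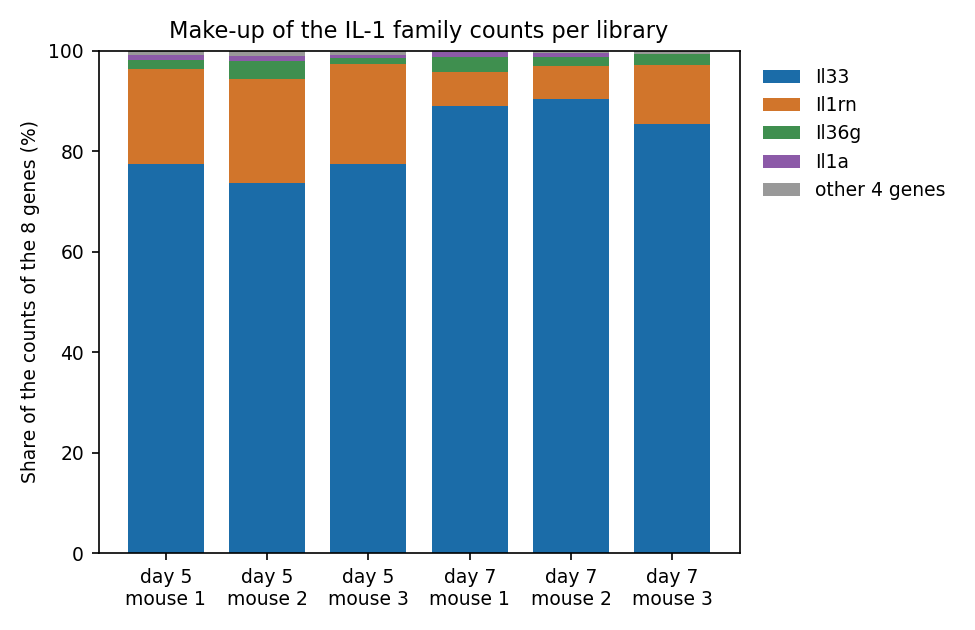
Share of the counts of the 8 genes (y axis, percent) held by *Il33*, *Il1rn*, *Il36g*, *Il1a* and the other 4 genes together in each library (x axis). *Il33* holds the largest part in every library, and the part of *Il1rn* is smaller in each day 7 library (at most 11.6%) than in each day 5 library (at least 18.9%).

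Antagonist was set against agonist within each library. There were 19.0, 18.2 and 33.8 *Il1rn* counts per count of *Il1a* and *Il1b* together on day 5, and 7.55, 7.41 and 60.0 on day 7. Mice 1 and 2 went down and mouse 3 went up, and the mean was 23.7 ± 8.80 on day 5 and 25.0 ± 30.3 on day 7 (SD, n = 3). Without day 7 replicate 3, the mean ratio on day 7 was 0.316 times that on day 5, against 1.06 times with all libraries. The mouse 3 value rests on 3 agonist counts. For IL-36 the antagonist was nearly absent, with 1 count of *Il36rn* against 39 of *Il36a*, *Il36b* and *Il36g* on day 5 and 3 against 175 on day 7.

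Of 9 genes of receptors and soluble inhibitors, 7 were tested, 1 was higher and 0 lower (1 and 0 at an unadjusted edgeR p under 0.05, and 0 and 0 by DESeq2), with a median log2 fold change of 0.22. Over all genes tested, 7.22% were higher and 4.82% lower past the threshold. *Il1rl1*, which encodes ST2, the receptor chain of IL-33, had 0 counts among 14721832 over the 6 libraries, which allows a level of up to 0.204 CPM. *Il1rap*, the accessory chain (ENSMUSG00000022514, chromosome 16, 26400350 to 26548880, plus strand), was at 12.0, 13.6 and 9.01 CPM on day 5 and 16.1, 26.0 and 24.0 CPM on day 7. The days did not overlap, and the log2 fold change of 0.95 ± 0.29 (SE, n = 3 per day) passed the threshold (edgeR adjusted p = 0.0416). It missed the threshold when any day 5 library or day 7 replicate 2 was left out, with log2 fold changes from 0.79 to 1.07 in these fits. It also missed the threshold with library totals as scaling (edgeR adjusted p = 0.0665) and by DESeq2 (adjusted p = 0.0750), where all alternatives together gave 0.0104 to 0.222.

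The other receptor genes did not pass the threshold. *Il18r1*, the ligand-binding chain for IL-18, was at 32.2 ± 1.22 and 37.5 ± 9.21 CPM on day 5 and day 7 (SD, n = 3), and *Il18rap*, its partner, was at 5.68 ± 1.48 and 4.08 ± 3.28 CPM. *Il1rl2*, the IL-36 receptor, was at 10.3 ± 4.47 and 11.3 ± 5.20 CPM, and *Il1r1*, the signalling IL-1 receptor, at 10.6 ± 1.34 and 13.4 ± 2.39 CPM. *Sigirr*, a dampening receptor, had 12 and 17 counts. The decoy receptor *Il1r2* had 1 count in all and the IL-18 binding protein *Il18bp* had 3 on each day.

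Genes of cytokine processing and release were mostly not past the threshold. Of 28 genes in the files, 17 were tested, 3 were higher and 0 lower, also by DESeq2, with a median log2 fold change of 0.11. At an unadjusted edgeR p under 0.05 these counts were 5 and 0. Past the threshold, 7.22% of all genes tested were higher and 4.82% lower. *Nlrp10*, an NLR protein of keratinocytes, went from 2.47, 1.51 and 4.32 CPM to 23.0, 55.2 and 60.2 CPM (log2 fold change 3.97 ± 0.42 SE, edgeR adjusted p = 6.70e-06). *Pycard*, the inflammasome adaptor ASC, went from 37.6 ± 3.24 to 77.4 ± 7.92 CPM (SD, n = 3), which is 1.04 on the log2 scale (edgeR adjusted p = 0.00251). *Gsdmc*, a gasdermin, rose by 2.80 on the log2 scale, with day 7 values of 44.1, 11.8 and 4.90 CPM, and missed the threshold without day 5 replicate 1 (2.44) and with robust = TRUE (edgeR adjusted p = 0.151, where its alternatives gave 2.46e-11 to 0.151). Without day 7 replicate 1 the log2 fold change of *Gsdmc* was 1.55. *Casp1*, *Casp4* and *Casp8*, which encode inflammatory and apical caspases and were picked for this role after their values were seen, did not pass, with log2 fold changes of -0.12, -0.11 and 0.05. Without day 7 replicate 3 the count of genes past the threshold was 6, and with no filter on low counts it was 5.

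Of 26 genes that carry the signal from the receptors to NF-κB, all tested, 2 were higher and 0 lower, also by DESeq2, with a median log2 fold change of 0.23. At an unadjusted edgeR p under 0.05 these counts were 5 and 2. Past the threshold, 7.22% of all genes tested were higher and 4.82% lower. *Tifa*, a TRAF6 adaptor, went from 0.825, 2.01 and 2.52 CPM to 10.4, 10.8 and 9.79 CPM (log2 fold change 2.49 ± 0.44 SE, edgeR adjusted p = 0.000996). *Peli2*, a ubiquitin ligase of the IRAK complex, went from 11.7 ± 1.37 to 31.7 ± 9.40 CPM (SD, n = 3), which is 1.45 on the log2 scale (edgeR adjusted p = 0.00235). *Myd88*, *Irak1* and *Rela*, core genes also picked after their values were seen, did not pass, with log2 fold changes of 0.09, -0.10 and -0.02. Without day 7 replicate 3 the count was 4.

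Among genes known to respond to IL-1 family cytokines in epithelia, more were higher than lower, as over all genes tested. The list's median log2 fold change was 0.08. Of 33 tested from a list of 41, 8 were higher and 3 lower at day 7, beside 7.22% and 4.82% of all genes tested. By DESeq2 these counts were 7 and 1, and at an unadjusted edgeR p under 0.05 they were 11 and 6. Among the rises were *S100a8*, a calprotectin subunit (47.4 ± 9.46 to 211 ± 80.6 CPM, SD, n = 3, edgeR adjusted p = 2.49e-05), and *Ptges*, a prostaglandin E synthase (22.8 ± 0.439 to 81.9 ± 32.1 CPM, edgeR adjusted p = 0.000225). The defensin gene *Defb4* had 2 counts on day 5, under the 3 that a count of 0 allows, and 79 on day 7. No single fold is given for it, and the 95% interval of the ratio from counting error was 10.1 to 317. *Defb14* had 8 and 112 counts. The 3 falls, named after their values were seen, were *Ptgs2*, the inducible cyclooxygenase (log2 fold change -1.62, edgeR adjusted p = 0.0169), *Nfkbiz*, an NF-κB cofactor (-0.77, edgeR adjusted p = 0.0448), and *Tnip3*, an NF-κB inhibitor (-0.80, edgeR adjusted p = 0.0284).

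The 3 falls depended on which libraries were kept, and *Ptgs2* and *Nfkbiz* also on the method. *Ptgs2* missed the threshold without day 5 replicate 1 (-1.11) or day 7 replicate 2 (-1.39), and its log2 fold change was -2.53 without day 7 replicate 1. It also missed it by DESeq2 (adjusted p = 0.159), with robust = TRUE (edgeR adjusted p = 0.247) and with filterByExpr (edgeR adjusted p = 0.0568), where its alternatives gave 1.16e-09 to 0.247. *Nfkbiz* missed it when any day 5 library or day 7 replicate 2 was left out, with -0.91 to -0.70, by DESeq2 (adjusted p = 0.0546) and with filterByExpr (edgeR adjusted p = 0.0569), where its alternatives gave 0.00364 to 0.198. *Tnip3* missed it in every fit without 1 library except that without day 7 replicate 3, with -0.85 to -0.70. With day 5 replicate 1, 2 or 3 left out, 6, 7 and 7 response genes were past the threshold, and 5 were with day 7 replicate 2 left out. The count was 17 with no filter on low counts and 7 with filterByExpr.

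**Figure D4:**
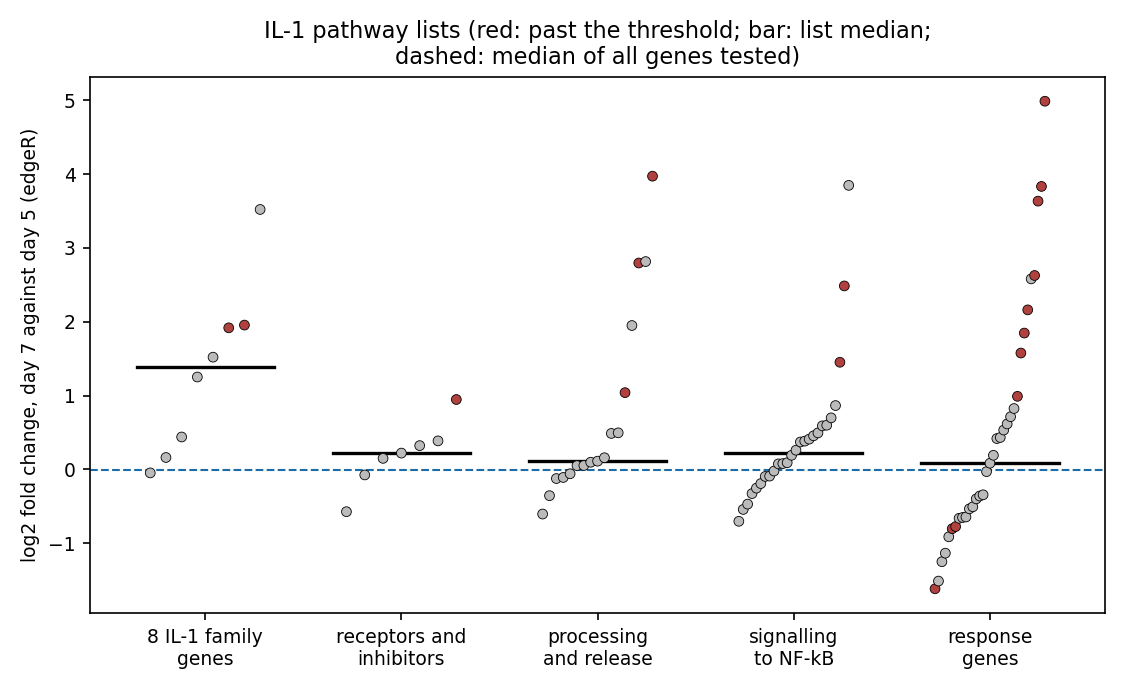
Log2 fold change of day 7 against day 5 (y axis, edgeR fitted values) of each gene tested in the 8 IL-1 family genes and in 4 pathway lists (x axis), red where past the threshold, with the list median as a bar and the median of all genes tested as a dashed line. Most points of the receptor, processing and signalling lists sit near the dashed line, and the response genes spread from -1.62 to 4.99.

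Markers of other cell types were looked at beside these values. Epithelial markers were abundant, with a summed level of 14560 to 18316 CPM on day 5 and 12088 to 16413 CPM on day 7, mostly from *Krt5* and *Krt14*. Of these 10 markers 2 were higher, *Krt19* (log2 fold change 1.78, edgeR adjusted p = 1.56e-05) and *Cldn4* (1.89, edgeR adjusted p = 0.000149), and 1 was lower, *Krt8* (-0.65, edgeR adjusted p = 0.0374). Of 12 macrophage and monocyte markers 8 had 0 counts in all libraries, among them *Csf1r*, *Adgre1* and *C1qa*. The summed level was 8.03 to 10.7 CPM on day 5 and 9.30 to 13.9 CPM on day 7, mostly from *Cd14* and *Cd68*. Of 8 neutrophil markers 5 were at 0, including *Mpo* and *Csf3r*, and the sum went from 0.412 to 4.68 CPM on day 5 to 13.2 to 13.8 CPM on day 7, mostly from *Cxcr2* and *Ltf*. Of 8 dendritic and Langerhans cell markers 5 were at 0, including *Cd207* and *Itgax*. The list had sums of 1.65 to 3.01 and 4.51 to 12.3 CPM, mostly from *H2-Ab1* and *H2-Eb1*. Of 10 lymphoid markers 7 were at 0, including *Cd3e*, with sums of 8.54 to 14.4 and 20.3 to 24.0 CPM, mostly from *Gata3*. Of 6 mast cell markers 4 were at 0, and the other 2 had 1 count each. Fibroblast markers had sums of 63.3 to 111 and 102 to 128 CPM, nearly all from *Vim*, with *Col1a2* and *Col3a1* at 0. Endothelial markers had sums of 13.0 to 15.7 and 29.2 to 38.2 CPM, mostly from *Egfl7* and *Flt1*, with *Cdh5* and *Tek* at 0. A single gene passed the threshold upward in each of these non-epithelial lists except those of mast cells and fibroblasts, namely *Cd68*, *Cxcr2*, *H2-Ab1*, *Gata3* and *Flt1*. By DESeq2 the count was 0 in the dendritic and Langerhans cell list, so the *H2-Ab1* call was lost. It stayed at 1 in the macrophage, neutrophil, lymphoid and endothelial lists. Over all genes tested, 7.22% passed it upward and 4.82% downward. Acinar markers were sparse, with sums of 7.03 to 12.6 and 11.9 to 35.7 CPM and 4 of 9 genes at 0, including *Lpo*, and *Pip* passed the threshold upward, from 3 counts to 46.

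Markers of cornified squamous keratinocytes were higher on day 7, as were *Il33* and *Il36g*. Of 14 such genes tested, 9 were higher and 0 lower, beside 7.22% and 4.82% of all genes tested. The list's counts were 10 and 0 at an unadjusted edgeR p under 0.05, and 7 and 0 by DESeq2. The summed level of the list went from 588, 684 and 660 CPM on day 5 to 2720, 3275 and 1769 CPM on day 7. It came mostly from *Krt13*, *Sprr1a*, *Sprr1b* and *Krt10*. *Krt1*, *Tgm3*, *Dsc1*, *Flg* and *Dsg1a* had only 4, 5, 10, 17 and 41 counts over the 6 libraries. Mouse 3 was lowest on day 7 in this sum, in *Il33*, in *Il36g* and in *Il1a*, and highest in *Il1rn*. Whether such cells were present, and what part they or the other marker genes that moved had in the results, was not tested.

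The genes whose log2 CPM over the 6 libraries ran most like that of *Il33*, among 8169 genes with a mean no lower than 10 CPM, were *Asprv1* (Pearson r = 0.999), *Sprr2f* (0.998) and *Arg1* (0.997). These 3 had day 5 means of 0.120, 3.00 and 8.93 CPM and reached a mean of 10 CPM only through day 7, and the day 5 level of *Asprv1* is under the 0.417 CPM that 3 counts over the day amount to. For *Il36g* they were *Elp3* (0.998), *Dsg3* (0.991) and *Zfx* (0.985). *Il36g* itself was at a mean of 5.77 CPM on day 5, from 39 counts, and met the 10 CPM rule only through day 7. Its r values thus rest on few counts. For *Il1rn* the genes were *Spef1* (0.997), *Dync1li2* (0.993) and *Poldip3* (0.991), of which *Spef1* was at 7.30 CPM on day 5. The day difference enters each of these values, 6 libraries of 3 mice stand behind them, and 271 genes had an r over 0.95 with *Il33*, 28 with *Il36g* and 126 with *Il1rn*.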

How the data were processed

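The data are raw read counts per Ensembl gene ID, deposited by the authors with 1 file per library and not normalised. Per the labels, polyadenylated RNA was made into Lexogen QuantSeq 3′ libraries. The submitters' processing notes name the build GRCm39. The aligner, annotation release and strand setting are not given in the sources used here. Entries that name no gene (9.12% to 14.4% of reads) were left out.

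IDs were named by exact match to GENCODE vM39, which found 43465 of 47643 (91.2%). Genes that had a count in 2 or more libraries entered edgeR 4.0.16 (R 4.3.3), with TMM scaling, glmQLFit and glmQLFTest, day as the only term, two-sided, and Benjamini-Hochberg adjustment over 15792 genes. SE is the absolute log2 fold change divided by the square root of F. CPM use TMM-scaled library sizes. DESeq2 1.42.0 was an alternative. Promoters and 3′ ends (BLAST 2.17.0, at least 90% identity) were read with Python 3.11.15.

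The sample titles give each library's mouse, and equal numbers were taken as the same animal on both days. Over 8172 genes the deviations of same-numbered libraries from the day means correlated at 0.14, -0.10 and 0.16. Depth was 1918198 to 2837397 counts, and 3 counts in a library are 1.04 to 1.51 CPM. Floors and intervals cover counting error only.

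The 8 genes and the lists (106 other pathway genes in the files, and cell type markers, without *Card8*, *Muc19* and *Lor*, which were not analysed here) were chosen with earlier results of these data known. Genes named are the 8, all receptors and other ligands, and the 4 smallest p past the threshold in each remaining pathway list, unless said otherwise.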

Additional observations from a re-analysis of the deposited data

How the results depend on the processing

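With the mouse as a replicate block, 2340 genes, 2 of the 8 IL-1 family genes and 20 pathway genes were past the threshold. Without it these were 1901, 2 and 18. Of the genes named by the rule above and the 3 falls, only *Il36b* changed its call with the block. Cell type markers, *Casp1*, *Casp4*, *Casp8*, *Myd88*, *Irak1* and *Rela* were not followed gene by gene. Without 1 library, the counts for all genes, the 8 genes and pathway genes were 797 to 2576, 2 to 3 and 10 to 26. They were 892, 797 and 890 for all genes when day 5 replicate 1, 2 or 3 was left out and 1045 when day 7 replicate 2 was, and 10 for the pathway genes in the fit lacking day 5 replicate 1 and in that lacking day 7 replicate 2. The *Il1rn* ratio to IL-1 agonists on day 7 over day 5 was 1.06, with 0.316 to 1.43 when 1 library was left out and 0.455 from summed counts, so its direction was not stable. No fold was formed for the *Il36rn* ratio, whose counts are at or under the floor. *Il33* and *Il36g* were past the threshold in all 13 alternatives (log2 fold changes 1.82 to 2.09 and 1.61 to 2.44). With library totals as scaling, 950 genes were higher and 1008 lower, against 1140 and 761, and the median log2 fold change of all genes moved from -0.0073 to -0.0973. Over named genes and lists, 361 comparisons with an alternative kept the call, or its absence, or stayed close in count. A further 50 lost the call or fell in count and 6 gained. The 361 include genes not past the threshold in the main fit, which had no call to lose. Among the genes followed one by one, none past the threshold in either fit changed direction. The direction turned in 6 fits, all of genes not past it and all without 1 library (*Il1b*, *Il1rl2* and *Il18bp* in 2 each). Depth limits *Il1b*, *Il36a*, *Il36rn* and *Il36b*, with 10 counts or fewer per day.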
